A study of Homo sapiens with 6 samples.

Results

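The comparison described here sets PC3 cells depleted of VEGF-C by siRNA against PC3 cells given a scrambled siRNA. PC3 is an established human prostate cancer line. The comparison takes in 4 of the 6 arrays of the series, 2 with VEGF-C siRNA and 2 with scrambled siRNA, chosen by their titles and their stated transfection, and the other 2 arrays, with NRP-2 siRNA, are set beside them where they bear on a value. Of 19775 genes with a probe set annotated to that gene alone, 11131 had a mean log2 level of at least 4 over the 6 arrays and were tested.

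All 3 groups were grown in RPMI medium with fetal bovine serum and were transfected with DharmaFECT reagents for 72 h before total RNA was taken. Biotin-labelled cRNA was hybridised to HG-U133 Plus 2.0 arrays, which report relative transcript levels. The VEGF-C siRNA was a pool from Dharmacon and the NRP-2 siRNA came from Santa Cruz Biotechnology, so the target and the supplier differ together, and a single VEGF-C pool was used. The protocol also names an siRNA for LAMP-2, which was not analysed here. The title of the series names autophagy as its subject, and the comparison asks which transcripts differ when VEGF-C is depleted.

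VEGF-C is a secreted growth factor that is processed by proteases and binds the receptors VEGFR-3 and VEGFR-2 (genes FLT4 and KDR), with neuropilin-2 (NRP2) as a co-receptor. It is best known for driving the growth of lymphatic vessels, and carcinoma cells, prostate cancer cells among them, also secrete it. Neuropilins bind class 3 semaphorins as well, guidance proteins that signal through plexins, so ligands of both families share a receptor.

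Single VEGF-C and scrambled arrays differed from each other somewhat more than the replicate arrays of these 2 groups did. A difference of at least 2-fold was seen in 351 genes (3.15%) between the means of the VEGF-C and scrambled arrays, against 297 genes (2.67%) between the VEGF-C replicates and 245 genes (2.2%) between the scrambled replicates. The standard deviation over genes of the log2 difference was 0.41 between the group means. It was 0.38 between VEGF-C arrays 1 and 2, and 0.34 between scrambled arrays 1 and 2. A mean of 2 arrays carries less noise than a single array, so the values for means and for replicates are not like for like. Between single arrays of the groups this standard deviation was 0.41 to 0.54. Scrambled array 2 lay farther from both VEGF-C arrays (0.54 and 0.53) than scrambled array 1 did (0.41 and 0.42). Over 19946 probe sets, NRP-2 replicates differed more (0.471) than scrambled array 1 did from the VEGF-C arrays (0.418 and 0.435). Epithelial markers of the line were high in all 4 arrays, at 14.63 and 14.68 with VEGF-C siRNA and 14.71 and 14.80 with scrambled siRNA for EPCAM, the epithelial cell adhesion molecule. Whether the arrays of a group stem from separate cultures is not stated, so a p-value covers the spread of these samples alone, which may be technical, and precision is limited by the number of arrays.

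No gene passed a Benjamini-Hochberg adjusted p under 0.05 in limma's test over 11131 genes (0 genes, 0.0%), and the lowest adjusted p was 0.204. At an unadjusted p under 0.05, 774 genes (6.95%) were higher and 868 (7.8%) lower with VEGF-C siRNA. Both VEGF-C arrays lay above both scrambled arrays in 2980 genes (26.8%) and below them in 2963 (26.6%). A difference of at least 2-fold without overlap was found in 212 genes in the higher direction (1.9%) and 121 in the lower (1.09%). The unadjusted count of higher genes dropped to 309 without scrambled array 2, and that of lower genes was 498 without scrambled array 1 and 357 without scrambled array 2. Of 5300 genes with at least 2 probe sets past the filter, 62.6% had the same sign in all, and of the 117 that also differed at least 2-fold without overlap, 109 (93.2%) did. Gene lists below are described by how many measured members had an unadjusted p under 0.05 and by their median log2 difference, to be read against these shares and against a median of -0.004 over all genes. Where a gene is said to be higher or lower, its values are given and no adjusted threshold was passed.

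**Figure D1:**
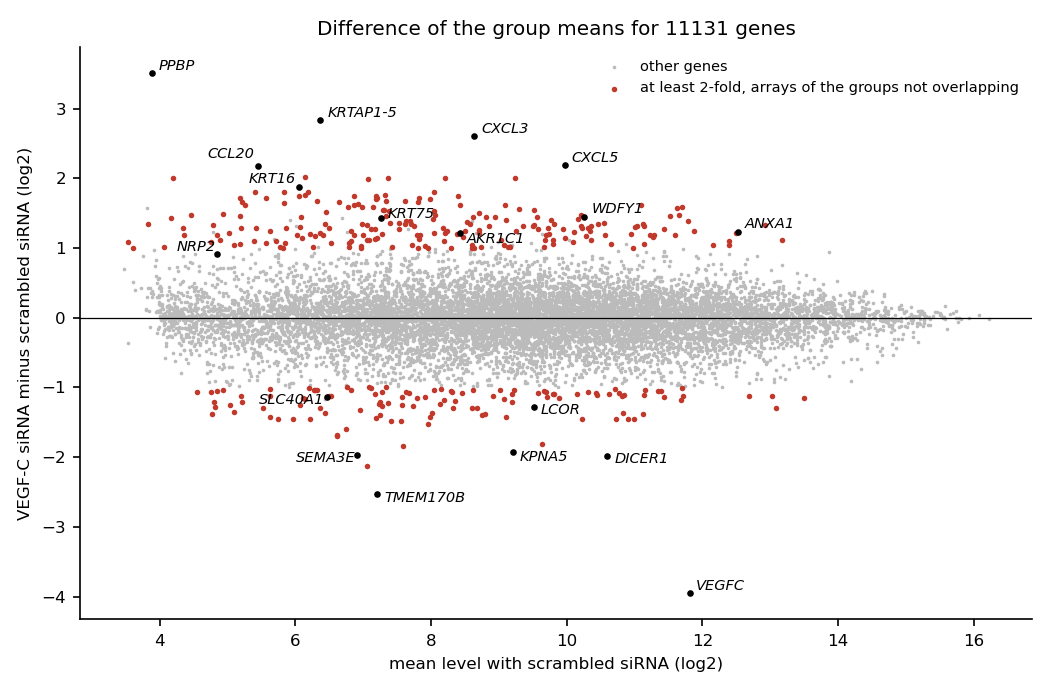
Log2 difference between VEGF-C and scrambled siRNA (vertical axis, means of 2 arrays each) against the mean log2 level with scrambled siRNA (horizontal axis) for 11131 genes. Red points are the 333 genes that differ at least 2-fold with no overlap between the arrays of the groups, and black points are named genes. VEGFC lies lowest, at -3.95, and PPBP highest, at 3.51.

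VEGFC, the targeted transcript, had log2 levels of 8.46 and 7.27 with VEGF-C siRNA, against 11.81 and 11.80 with scrambled siRNA. The groups did not overlap, and the VEGF-C arrays differed from each other by more than a log2 unit, while the scrambled arrays were nearly equal. The difference was -3.95 (SE 0.39), which is 15.4-fold lower, at limma's adjusted p of 0.204. It was the largest difference in either direction, and with VEGF-C array 1 left out it was -4.54.

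Among the relatives of VEGF-C, NRP2 had 5.51 and 6.01 with VEGF-C siRNA and 4.77 and 4.92 with scrambled siRNA. Both VEGF-C arrays were above both scrambled arrays (0.91, SE 0.26), at levels low on this platform. NRP1, the other neuropilin, had 14.54 and 14.29, against 14.69 and 14.89 with scrambled siRNA, and its other probe sets differed by -0.83 and -1.18. VEGFA, the main angiogenic ligand of the family, had 12.60 and 12.52 with VEGF-C siRNA and 12.50 and 12.40 with scrambled siRNA. The receptors KDR and FLT4 sat near the low end, at 5.02 and 5.12 for KDR and 4.07 and 4.24 for FLT4 with VEGF-C siRNA, against 5.09 and 5.13 for KDR and 4.11 and 4.16 for FLT4 with scrambled siRNA. For KDR, FLT4 and the ligands VEGFB and PGF the difference was between -0.05 and 0.05, within the spread of replicates. Of the 8 measured family members, 1 was higher and 1 lower at the unadjusted threshold, against 6.95% and 7.8% of all genes.

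The class 3 semaphorins SEMA3E and SEMA3C were among the lower genes. SEMA3E, which signals through plexin-D1, had 4.80 and 5.08 with VEGF-C siRNA, against 6.79 and 7.03 with scrambled siRNA. SEMA3C, a ligand of both neuropilins, had 12.85 and 13.21, against 13.86 and 13.87 with scrambled siRNA. In neither gene did the groups overlap, and the differences were -1.97 (SE 0.24) and -0.84 (SE 0.16). PLXNB1, the receptor of semaphorin 4D, was lower (-0.80, SE 0.18) and PLXNA2, a class 3 semaphorin receptor, higher (0.40, SE 0.11). Of the 14 measured semaphorins and plexins, 3 were lower and 1 higher at the unadjusted threshold, against 7.8% and 6.95% of all genes. The list as a whole had no common direction, with 7 members above 0, 7 below and a median of -0.03.

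Among the 15 genes with the smallest p in the higher direction, KRT75, ANXA1, AKR1C1, WDFY1 and KRT16 came first. KRT75, a keratin of the hair follicle, had 8.78 and 8.58 with VEGF-C siRNA, against 7.31 and 7.20 with scrambled siRNA. ANXA1, annexin A1, a membrane-binding protein known for limiting inflammation, had 13.76 and 13.75, against 12.45 and 12.60 with scrambled siRNA. Each replicate pair lay within 0.20 of log2 for these genes, far less than the gap between the groups, with differences of 1.43 (SE 0.13) and 1.23 (SE 0.12). AKR1C1, an aldo-keto reductase that inactivates progesterone, had 9.51 and 9.74 with VEGF-C siRNA and 8.48 and 8.35 with scrambled siRNA (1.21, SE 0.14). Its other probe set past the filter differed by 0.95, and those of its relative AKR1C2 by 0.24 and 1.02. Members of this family may share probes. KRT16, a keratin of stressed and wounded epidermis, had 8.13 and 7.74, against 6.36 and 5.75 with scrambled siRNA (1.88, SE 0.25).

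WDFY1, which binds phosphatidylinositol 3-phosphate on endosomes, had 11.84 and 11.59 with VEGF-C siRNA, against 10.10 and 10.43 with scrambled siRNA, a difference of 1.45 (SE 0.18). Its other probe set differed by 1.42. The arrays with NRP-2 siRNA were also high for WDFY1, at 12.04 and 11.83. The rest of the 15 differed by 0.81 to 1.02. They include TRHDE, the ectoenzyme that degrades thyrotropin-releasing hormone, MAPKAPK5, a kinase downstream of p38-type MAP kinases, and GEMIN5, the snRNA-binding subunit of the SMN complex. FOXD1, a forkhead transcription factor, PPP6R3, a regulatory subunit of protein phosphatase 6, and LRRFIP2 belong to them too. So do NAGS, the mitochondrial synthase of N-acetylglutamate, FBXL12, a substrate receptor of an SCF ubiquitin ligase, BIK, a pro-apoptotic BH3-only protein, and TWNK, the mitochondrial DNA helicase. The levels of TWNK were 8.62 and 8.62, against 7.76 and 7.75 with scrambled siRNA, so the groups were apart by 0.86 with almost no spread within either.

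**Figure D2:**
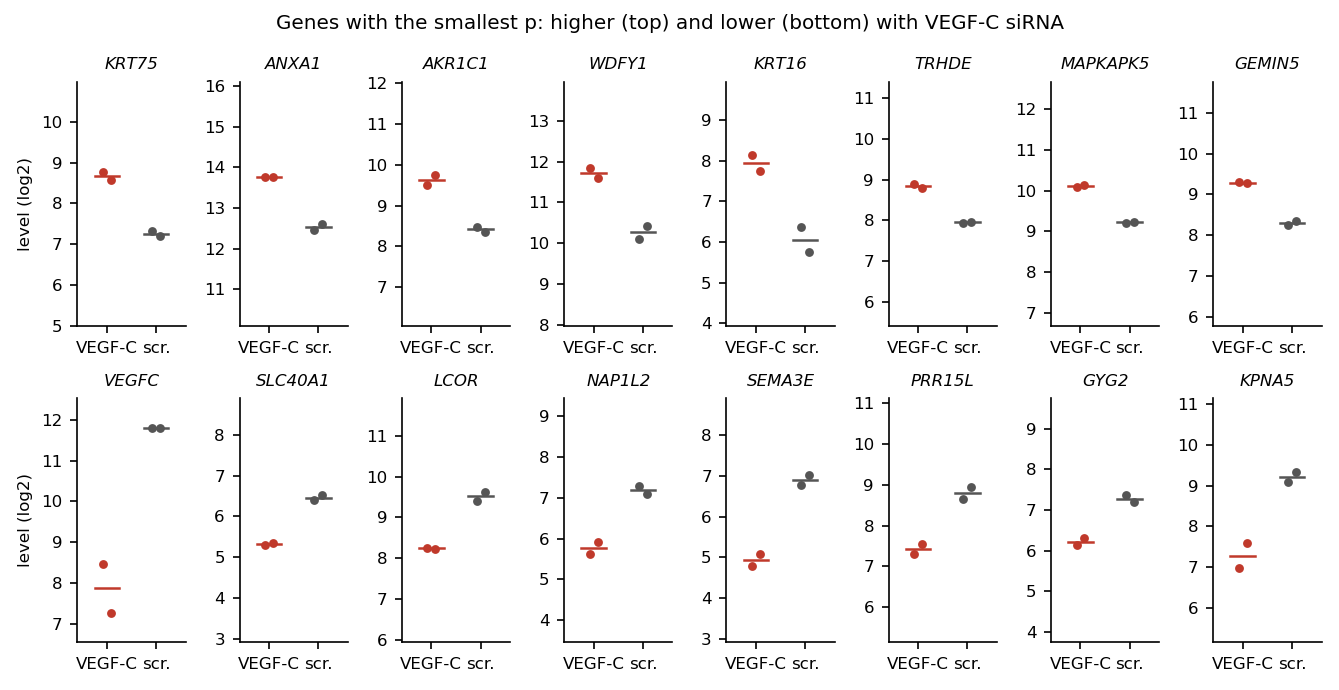
Log2 level on each array (vertical axes, 6 log2 units in every panel) of the 8 genes with the smallest p in the higher direction (top row) and of the 8 in the lower direction (bottom row). Points are arrays and lines are means, with VEGF-C siRNA on the left and scrambled siRNA on the right. In each of the 16 panels the arrays of the groups are apart, and VEGFC has the widest gap.

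Leading the lower direction after VEGFC was SLC40A1, ferroportin, the exporter of cellular iron. It had 5.29 and 5.34 with VEGF-C siRNA, against 6.40 and 6.52 with scrambled siRNA, and 6.77 and 6.75 with NRP-2 siRNA. The VEGF-C arrays were the low ones of all 6, and the difference from scrambled siRNA was -1.14 (SE 0.12). LCOR, a corepressor of nuclear receptors, had 8.25 and 8.23 with VEGF-C siRNA and 9.41 and 9.63 with scrambled siRNA (-1.28, SE 0.14), and its other probe set differed by -1.10. NAP1L2, a nucleosome assembly protein, differed by -1.44 (SE 0.17). KPNA5, an importin alpha that carries proteins into the nucleus, had 6.97 and 7.59, against 9.09 and 9.33 with scrambled siRNA (-1.93, SE 0.24). Its other probe sets differed by -1.41 and -0.42. RCN2, a calcium-binding protein of the endoplasmic reticulum, had 11.99 and 11.61, against 13.16 and 13.01 with scrambled siRNA (-1.29, SE 0.17), and its other probe set differed by -1.21. Differences of -0.83 to -1.39 were found for the other members of the 15 apart from SEMA3E. Those are GYG2, which primes glycogen synthesis, SLC23A2, a vitamin C transporter, PACSIN1, a membrane-bending protein of endocytosis, CTNNBIP1, an inhibitor of beta-catenin binding to TCF, and GALNT11, which starts mucin-type O-glycans, together with PRR15L, UNC119B and KLHL36. For KLHL36 the other probe sets differed by -1.19 and 0.26.

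The largest differences lay partly elsewhere. A gap of at least 4-fold without overlap was found for 7 genes in the higher direction (0.0629%) and 3 in the lower (0.027%). The lower ones besides VEGFC were TMEM170B, with 5.47 and 3.89 with VEGF-C siRNA and 7.32 and 7.10 with scrambled siRNA, and LINC01128, a long non-coding RNA whose other probe set differed by only 0.04. DICER1, the nuclease that cuts microRNA precursors, had 8.13 and 9.10, against 10.50 and 10.69 with scrambled siRNA, and 10.42 and 10.42 with NRP-2 siRNA. Its 3 probe sets past the filter pointed the same way, at -1.98 (SE 0.32), -1.93 and -1.66. PDK3, a kinase that inhibits pyruvate dehydrogenase, had 8.19 and 7.47, against 9.22 and 10.06 with scrambled siRNA (-1.81, SE 0.37), and -2.09 to -0.14 in its other probe sets. GPLD1, a phospholipase that releases GPI-anchored proteins, differed by -1.69 (SE 0.29), and TNFSF4, the OX40 ligand, by -1.59 (SE 0.54).

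In the higher direction the largest gaps were those of PPBP, KRTAP1-5, CXCL3, CXCL5 and CCL20. KRTAP1-5, a hair keratin-associated protein, had 8.82 and 9.57 with VEGF-C siRNA, against 6.74 and 5.99 with scrambled siRNA (2.83, SE 0.49). QKILA was high mainly on VEGF-C array 2, with 5.28 and 7.12, against 4.18 and 4.21 with scrambled siRNA. TROAP, a spindle-associated protein, and AURKB, the mitotic kinase Aurora B, are described below with the cell cycle genes.

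Several of the genes with the largest differences encode neutrophil-attracting chemokines. Ligands of the receptor CXCR2 such as CXCL1, CXCL2, CXCL3, CXCL5 and PPBP recruit neutrophils, and their genes lie together on chromosome 4. Transcription of several of them is known to be driven by NF-kB, as is that of IL6 and CCL20. The bases just before the start site are shown for 6 of these genes because they are the chemokines and the interleukin with the largest differences. Each run is the 160 bases before the start site, read on the strand of the gene, from RefSeq on GRCh38.p14, and capitals mark a match to the NF-kB motif (GGG, any 2 bases, then TTTCC) on either strand. The positions are chr4:74099196-74099355 (minus strand) for CXCL2, chr4:74038690-74038849 (minus strand) for CXCL3, chr4:73998678-73998837 (minus strand) for CXCL5, chr4:73988191-73988350 (minus strand) for PPBP, chr2:227813682-227813841 (plus strand) for CCL20 and chr7:22727040-22727199 (plus strand) for IL6.
CXCL2: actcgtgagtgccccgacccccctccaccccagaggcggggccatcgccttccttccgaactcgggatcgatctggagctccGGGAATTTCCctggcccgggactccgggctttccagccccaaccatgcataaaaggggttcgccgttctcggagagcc
CXCL3: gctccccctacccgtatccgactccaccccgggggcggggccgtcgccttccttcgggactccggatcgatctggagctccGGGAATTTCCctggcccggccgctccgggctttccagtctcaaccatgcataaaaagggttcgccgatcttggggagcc
CXCL5: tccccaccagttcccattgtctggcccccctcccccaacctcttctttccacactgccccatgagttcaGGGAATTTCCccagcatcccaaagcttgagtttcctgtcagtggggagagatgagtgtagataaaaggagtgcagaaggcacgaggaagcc
PPBP: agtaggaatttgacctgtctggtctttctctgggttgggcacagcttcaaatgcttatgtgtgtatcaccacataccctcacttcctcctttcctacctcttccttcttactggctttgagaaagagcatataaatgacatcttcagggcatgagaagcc
CCL20: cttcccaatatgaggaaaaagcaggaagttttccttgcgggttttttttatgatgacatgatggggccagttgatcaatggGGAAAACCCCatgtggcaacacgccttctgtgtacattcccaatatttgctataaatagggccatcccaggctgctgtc
IL6: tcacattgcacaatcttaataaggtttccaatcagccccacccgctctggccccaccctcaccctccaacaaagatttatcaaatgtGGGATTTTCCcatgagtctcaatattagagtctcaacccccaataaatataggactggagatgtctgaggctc
The match began at -78 in CXCL2, -79 in CXCL3, -91 in CXCL5, -79 in CCL20 and -73 in IL6, counted from the start site, and PPBP held none in its window. Over the windows of the list of chemokines and cytokines, each from 250 bases before to 50 after a start site, 7 of 16 (43.8%) held the motif, PPBP not being a member of that list, against 1.91% of 35116 windows of all genes. A match describes these letters and is neither a binding site nor a cause.

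PPBP, which encodes the precursor of CXCL7, had 7.34 and 7.44 with VEGF-C siRNA, against 4.61 and 3.14 with scrambled siRNA and 4.52 and 3.18 with NRP-2 siRNA. The VEGF-C arrays stood apart from the other 4, with a difference from scrambled siRNA of 3.51 (SE 0.62). Its mean was under log2 4 in both other groups (3.88 with scrambled and 3.85 with NRP-2 siRNA), so PPBP passed the filter through the VEGF-C arrays, and the size of the difference near the floor is uncertain. CXCL3 had 11.23 and 11.26 with VEGF-C siRNA, against 9.13 and 8.16 with scrambled siRNA (2.60, SE 0.63). CXCL5 had 12.02 and 12.31, against 10.66 and 9.29 with scrambled siRNA (2.19, SE 0.57), and its other probe set differed by 2.85. In all of these the VEGF-C arrays were close to each other while scrambled array 2 lay below scrambled array 1.

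CCL20, which attracts CCR6-bearing cells, had 7.29 and 7.96 with VEGF-C siRNA, against 5.81 and 5.10 with scrambled siRNA (2.17, SE 0.43). CXCL2 had 11.26 and 11.18, against 9.76 and 8.70 with scrambled siRNA (2.0, SE 0.58). IL6, the acute-phase cytokine, had 10.15 and 10.24, against 8.84 and 7.55 with scrambled siRNA (2.0, SE 0.74). The groups were apart in each of these, by a gap to the nearer scrambled array of at least a log2 unit. CXCL8, interleukin 8, was higher in both VEGF-C arrays at 14.63 and 14.99, against 14.12 and 13.62 with scrambled siRNA, and so was CXCL1 at 12.33 and 12.62, against 11.69 and 10.89. CXCL6 overlapped between the groups. CXCL10, an interferon-induced ligand of CXCR3, had 7.82 and 7.41, against 6.63 and 7.05 with scrambled siRNA.

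**Figure D3:**
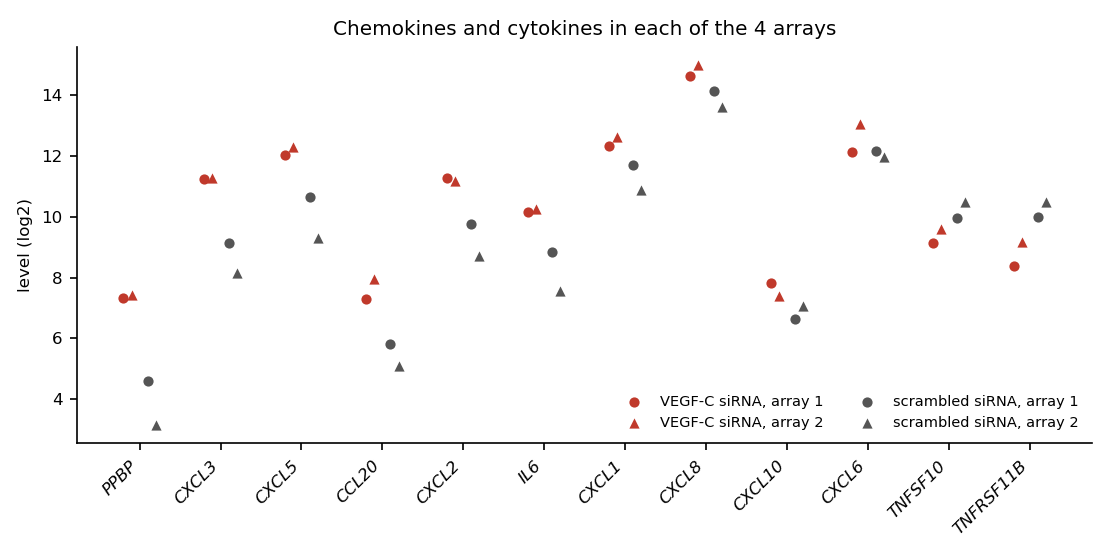
Log2 level (vertical axis) of 12 chemokine, cytokine and related genes on each of the 4 arrays, VEGF-C siRNA in red to the left of scrambled siRNA in grey within each gene, circles for array 1 and triangles for array 2. PPBP, CXCL3, CXCL5, CCL20, CXCL2 and IL6 are higher in both VEGF-C arrays, CXCL6 overlaps, and TNFSF10 and TNFRSF11B are lower.

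Both lower members of this list belong to the TNF ligand and receptor families. TNFRSF11B, osteoprotegerin, a soluble decoy receptor, had 8.39 and 9.16 with VEGF-C siRNA, against 9.98 and 10.47 with scrambled siRNA (-1.45, SE 0.42), and its other probe set differed by -0.81. TNFSF10, the death ligand TRAIL that osteoprotegerin can bind, had 9.14 and 9.60, against 9.96 and 10.48 with scrambled siRNA (-0.85, SE 0.27). Of the 20 measured chemokines and cytokines, 6 were higher and 2 lower at the unadjusted threshold, against 6.95% and 7.8% of all genes, and the median was 0.37. The count of higher members was 5 without scrambled array 1 and 4 without scrambled array 2, and that of lower members was 2 and 0. Without VEGF-C array 1 there were 4 higher and 0 lower, and without VEGF-C array 2 there were 3 higher and 3 lower. PPBP is not in this list. The arrays with NRP-2 siRNA were split, with CXCL1 at 13.06 and 11.01 and IL6 at 9.91 and 7.87.

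Among NF-kB subunits and their inhibitors, 3 of 12 were higher at the unadjusted threshold, against 6.95% of all genes. None (0) was lower, and the median was 0.36. TNFAIP3, the deubiquitinase A20, had 9.23 and 9.66 with VEGF-C siRNA, against 8.69 and 8.98 with scrambled siRNA (0.61, SE 0.24). TNIP1, which binds A20, and NFKB1, the p105 and p50 subunit, differed by 0.45 (SE 0.16) and 0.40 (SE 0.15). Of the windows of this list, 7 of 19 (36.8%) held the NF-kB motif. With either scrambled array left out no member (0) passed the unadjusted threshold, though the medians were 0.36 and 0.27.

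Genes of basal and stressed keratinocytes were higher in 5 of 17 measured, against 6.95% of all genes, with a median of 0.17. Besides KRT75 and KRT16, PI3, the elastase inhibitor elafin, had 13.35 and 12.91 with VEGF-C siRNA, against 11.99 and 11.30 with scrambled siRNA (1.48, SE 0.52). LAMB3, the beta chain of laminin-332, had 11.80 and 11.63, against 10.85 and 10.46 with scrambled siRNA (1.06, SE 0.19). LCN2, the iron-siderophore carrier lipocalin 2, had 13.65 and 13.72, against 12.91 and 13.11 with scrambled siRNA (0.68, SE 0.13). The groups were apart in all 3. The count was between 4 and 5 when any of the 4 arrays was left out.

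Annexins and S100 proteins as a list did not follow ANXA1. Of 21 measured, 2 were higher, ANXA1 and ANXA3 (0.41, SE 0.14), against 6.95% of all genes, and the median was -0.01. The higher count was 1 when scrambled array 2 or one of the VEGF-C arrays was left out.

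Proteases, serpins and the plasminogen system had 6 higher and 1 lower of 25 measured, against 6.95% and 7.8% of all genes. Their median was 0.37. MMP13, collagenase 3, had 8.13 and 8.58 with VEGF-C siRNA, against 7.27 and 7.14 with scrambled siRNA (1.15, SE 0.28). SERPINB1, an inhibitor of neutrophil elastase, had 11.83 and 12.04, against 10.96 and 11.12 with scrambled siRNA (0.90, SE 0.16), while its other probe sets differed by 0.44 and 0.04. Also higher were SERPINB8 (0.66, SE 0.24), SERPINE2, the thrombin inhibitor protease nexin-1 (0.57, SE 0.16), and ADAM17, the sheddase of TNF and EGF ligands (0.50, SE 0.13). The count of higher members was 4 without either scrambled array and 9 without VEGF-C array 1.

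EGF family ligands and receptors had 4 of 10 members higher and 1 lower at the unadjusted threshold, against 6.95% and 7.8% of all genes. Of the members, 6 lay above 0 and 4 below. EGF had 6.18 and 6.11 with VEGF-C siRNA, against 5.08 and 5.10 with scrambled siRNA (1.05, SE 0.18). HBEGF, a heparin-binding ligand, had 10.79 and 10.94, against 10.19 and 9.41 with scrambled siRNA (1.06, SE 0.33). EGFR had 12.55 and 12.10, against 11.77 and 11.89 with scrambled siRNA, and its feedback inhibitor ERRFI1 was higher by 0.52 (SE 0.13). ERBB2, the receptor HER2, was lower, at 9.79 and 9.76 with VEGF-C siRNA and 10.14 and 10.34 with scrambled siRNA. The higher count was 1 without scrambled array 2 and 2 or 3 without another of the 4 arrays, and the lower count was 0 in each case.

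Output genes of the MAP kinase pathway had members past the unadjusted threshold in both directions. Of all genes, 6.95% passed it in the higher direction and 7.8% in the lower. MYC had 13.04 and 12.53 with VEGF-C siRNA, against 11.95 and 11.91 with scrambled siRNA (0.85, SE 0.23), and FOSL1, an AP-1 subunit, had 11.78 and 11.46, against 10.98 and 10.62 (0.82, SE 0.19). Lower members were the Sprouty and Spred inhibitors SPRY4, SPRY1 and SPRED2. SPRY4 had 7.38 and 7.02, against 8.08 and 8.16 with scrambled siRNA (-0.92, SE 0.21), SPRY1 differed by -0.69 (SE 0.16) and SPRED2 by -0.42 (SE 0.13). Of the 21 members, 5 were higher and 3 lower, and the higher count was 1 without scrambled array 2 and 1 without VEGF-C array 1.

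The list of target genes of the Hippo pathway effector YAP also holds its partner TEAD1. Of 18 measured members, 4 were higher and 0 lower, against 6.95% and 7.8% of all genes. Their median was 0.45. CCN2, a matricellular growth factor, had 11.39 and 11.46 with VEGF-C siRNA, against 10.75 and 10.49 with scrambled siRNA (0.80, SE 0.25). AJUBA, a LIM protein that binds Hippo kinases, differed by 0.61 (SE 0.17), GADD45A by 0.63 (SE 0.25) and TEAD1, the DNA-binding partner of YAP, by 0.46 (SE 0.18). None (0) was higher at that threshold without scrambled array 2 or without VEGF-C array 1, and 2 were lower without VEGF-C array 1. The median without scrambled array 2 was 0.20.

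The TGF-beta and BMP list had 1 lower member of 23, against 7.8% of all genes, and a median of 0.02. That member was LTBP1, a binding protein of latent TGF-beta (-0.57, SE 0.19). In the Wnt and Notch list 3 of 18 were lower and 1 higher, against 7.8% and 6.95% of all genes, with a median of -0.08. With any of the 4 arrays left out, 0 to 1 were lower and 0 higher. The lower ones were TCF7L2, a transcription factor of the pathway (-0.54, SE 0.16), LGR4, a receptor of R-spondins (-0.53, SE 0.18), and RNF43, a ubiquitin ligase that removes Wnt receptors (-0.53, SE 0.18). ZNRF3, the relative of RNF43, was the higher one (0.54, SE 0.17).

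Adhesion genes had no common direction. LAMC1, a laminin gamma chain, had 10.76 and 10.21 with VEGF-C siRNA, against 9.0 and 9.50 with scrambled siRNA, but its other probe set differed by -0.24. ITGA1, a collagen-binding integrin subunit, had 6.68 and 6.10, against 7.41 and 7.23 with scrambled siRNA (-0.92, SE 0.21). SNAI2, the transcription factor Slug, which represses E-cadherin, had 10.76 and 10.55, against 9.62 and 9.07 with scrambled siRNA (1.31, SE 0.32). CTNNB1, beta-catenin, was higher (0.63, SE 0.14), as was TJP1, the scaffold ZO-1 (0.43, SE 0.15). The junction proteins CXADR, at 11.23 and 11.37 against 12.12 and 12.46 with scrambled siRNA, and OCLN, occludin, at 12.39 and 11.66 against 12.76 and 12.86, were lower. Of the 25 cadherins, junction proteins and EMT factors, 4 were higher and 2 lower, and of the 19 integrins and laminins 2 and 1. Over all genes the shares were 6.95% and 7.8%. With any of the 4 arrays left out the first list had 2 to 5 higher and 0 to 2 lower, and the second kept 2 and 1.

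Beta protocadherins, adhesion proteins of a gene cluster on chromosome 5, were lower without overlap in 4 of 5 measured members, against 26.6% of all genes. The median was -0.94. PCDHB7 had 4.67 and 5.21 with VEGF-C siRNA, against 6.35 and 6.89 with scrambled siRNA (-1.68, SE 0.39). PCDHB14 had 6.06 and 6.11, against 7.51 and 7.61 (-1.48, SE 0.40), and PCDHB2 had 8.59 and 9.12, against 9.83 and 9.76 (-0.94, SE 0.25). These 3 passed the unadjusted threshold, and 1 to 2 did when an array was left out. Levels with NRP-2 siRNA were low too, at 4.57 and 5.52 for PCDHB7. Near-identical members of such a cluster may share probes.

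Genes of G2 and mitosis were the list with the highest median, and the scrambled arrays differed most in it. All 41 measured members had a higher mean with VEGF-C siRNA, with a median of 1.30. In 33 both VEGF-C arrays lay above both scrambled arrays, against 26.8% of all genes. The mean level of the list was 11.18 and 10.48 on the VEGF-C arrays, against 10.33 and 8.70 on the scrambled arrays, and 11.04 and 10.02 with NRP-2 siRNA. Scrambled array 2 was therefore the lowest of all 6 arrays and lay 1.63 below scrambled array 1, while VEGF-C array 2 was close to scrambled array 1. In bulk RNA, fewer cycling cells and less of these transcripts per cell cannot be told apart. The mean over the members was higher in array 1 than in array 2 in each of the 3 groups. The unadjusted threshold was passed by 3 of the 41 members, all higher, a share near the 6.95% of all genes. That count was 39, with a median of 2.16, without scrambled array 1, and 0, with a median of 0.45, without scrambled array 2. What part the low scrambled array has in the result was not tested.

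MKI67, the proliferation marker Ki-67, had 9.94 and 8.79 with VEGF-C siRNA, against 8.38 and 6.33 with scrambled siRNA (2.01, SE 0.83). AURKB had 9.34 and 8.80, against 8.07 and 6.07 with scrambled siRNA (1.99, SE 0.76). UBE2C, the ubiquitin-conjugating enzyme of the anaphase-promoting complex, had 13.50 and 13.09, against 12.47 and 10.94 with scrambled siRNA (1.59, SE 0.58). The groups did not overlap in these, and in each the gap between the scrambled arrays exceeded that between the nearest arrays of the groups. CENPE, a kinetochore motor, differed by 1.27 (SE 0.44) and TROAP by 2.02 (SE 0.72), with 0.89 in its other probe set.

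Promoters of many mitotic genes carry the cell cycle homology region, with the letters TTTGAA, through which the DREAM and MuvB complexes act. The 160 bases before the start sites of MKI67 (chr10:128126424-128126583, minus strand) and of CENPA, the centromeric histone of the same list (chr2:26785896-26786055, plus strand), are printed as examples from RefSeq on GRCh38.p14, with each TTTGAA on either strand in capitals.
MKI67: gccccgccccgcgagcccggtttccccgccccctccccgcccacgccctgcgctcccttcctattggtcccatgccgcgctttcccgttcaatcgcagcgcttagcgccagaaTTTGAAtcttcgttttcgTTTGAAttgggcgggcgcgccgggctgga
CENPA: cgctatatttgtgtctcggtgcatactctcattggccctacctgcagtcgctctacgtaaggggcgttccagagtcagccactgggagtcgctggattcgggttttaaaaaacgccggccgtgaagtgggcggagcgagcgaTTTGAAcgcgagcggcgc
The matches began at -47 and -29 in MKI67 and at -18 in CENPA. These letters were held by 27 of 45 windows of the list (60.0%) and by 15.2% of all windows. MKI67 and CENPA are among the 24 genes of the list with a match, and AURKB and CENPE are not.

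S phase and replication genes had smaller differences, with 28 of 35 above 0 and a median of 0.46. At the unadjusted threshold 1 was higher, against 6.95% of all genes. That member was CDC6, which loads the replicative helicase, with 9.33 and 8.45 with VEGF-C siRNA and 7.50 and 6.88 with scrambled siRNA (1.70, SE 0.49). TK1, thymidine kinase, had 10.34 and 9.35, against 8.88 and 7.22 with scrambled siRNA. Mean levels of this list were 9.71 and 8.92 with VEGF-C siRNA and 9.03 and 8.67 with scrambled siRNA, so VEGF-C array 2 lay below scrambled array 1. The E2F forms TTTGGCGC and TTTCCCGC were held by 5 of 40 (12.5%) and 8 of 40 (20.0%) of its windows, on either strand, against 0.652% and 1.63% of all windows. Among inhibitors of cyclin-dependent kinases and genes of quiescence, KLF6, a Krueppel-like transcription factor, was higher, at 11.99 and 12.41 against 11.38 and 10.90 with scrambled siRNA. CDKN3, a phosphatase of cyclin-dependent kinases, was higher too (1.21, SE 0.41). As in the mitotic list, scrambled array 2 lay below scrambled array 1 for CDKN3, at 12.06 against 12.94. CCNG2, a cyclin of resting cells, was lower (-0.57, SE 0.20). Of the 20 measured inhibitors and quiescence genes, 3 were higher and 1 lower, against 6.95% and 7.8% of all genes. Their median was 0.05.

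**Figure D4:**
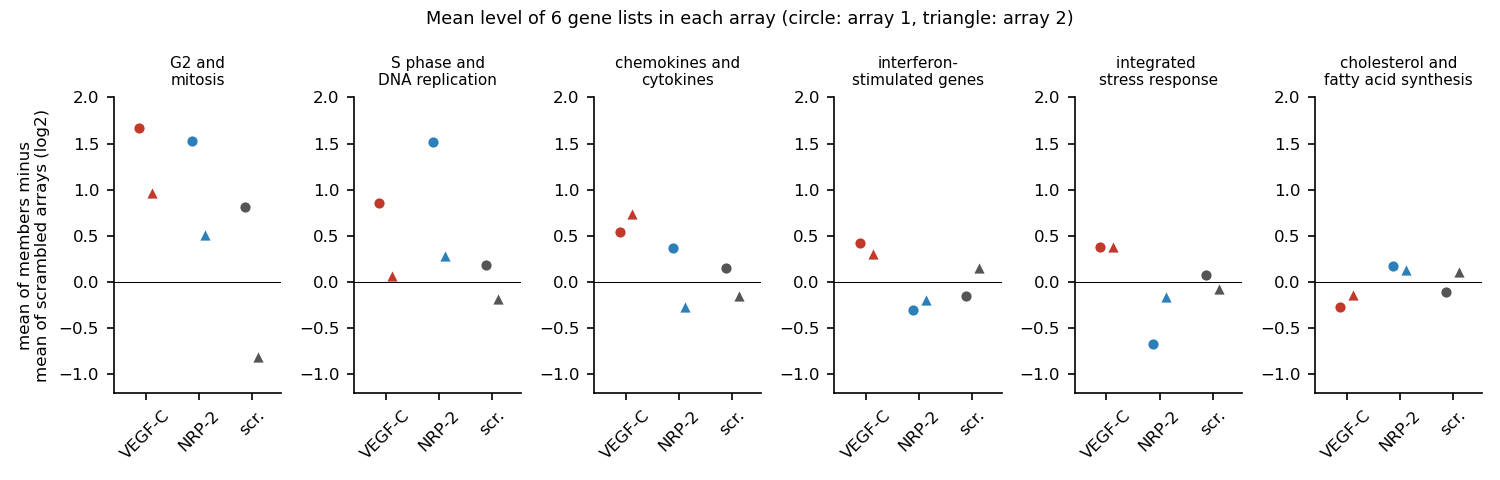
Mean log2 level of the members of 6 gene lists on each array, as a difference from the mean of the 2 scrambled arrays (vertical axis, log2), for VEGF-C, NRP-2 and scrambled siRNA, circles for array 1 and triangles for array 2. The G2 and mitosis list spreads most between the scrambled arrays. In that list and in the chemokine, interferon and stress response lists, both VEGF-C arrays lie above both scrambled arrays.

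Interferon-stimulated genes were higher in 14 of 42 at the unadjusted threshold and lower in none (0), against 6.95% and 7.8% of all genes. The median was 0.34 and 40 members lay above 0. In 28 both VEGF-C arrays were above both scrambled arrays, against 26.8% of all genes. The count of higher members was 6 without scrambled array 1, 13 without scrambled array 2, 6 without VEGF-C array 1 and 9 without VEGF-C array 2. Mean levels of the list were 11.51 and 11.39 with VEGF-C siRNA, against 10.93 and 11.24 with scrambled siRNA and 10.78 and 10.89 with NRP-2 siRNA. Scrambled array 2 was thus the higher of the scrambled arrays here, the reverse of the mitotic genes.

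EPSTI1, an epithelial-stromal interaction gene induced by interferon, had 7.87 and 7.84 with VEGF-C siRNA, against 6.70 and 6.88 with scrambled siRNA (1.07, SE 0.18), and its other probe set differed by 0.51. OASL, a relative of the oligoadenylate synthetases, had 11.05 and 10.84, against 10.11 and 10.23 with scrambled siRNA (0.77, SE 0.14). IFIT3, which acts in antiviral RNA recognition complexes, averaged 14.04 ± 0.06 with VEGF-C siRNA, against 13.40 ± 0.13 with scrambled siRNA (SD, n = 2 each), a difference of 0.64 (SE 0.13). All were apart between the groups. ISG20, an exonuclease (0.80, SE 0.19), IRF1, a transcription factor (0.67, SE 0.15, and 0.30 in its other probe set), and PSMB9, an immunoproteasome subunit (0.78, SE 0.19), complete the leading members. EIF2AK2, the kinase PKR, which senses double-stranded RNA, had 12.45 and 12.29, against 12.71 and 13.01 with scrambled siRNA, without passing the unadjusted threshold. Its other probe sets differed by 0.11 and -0.82.

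Interferon signals act through the interferon-stimulated response element, searched here as TTTC, any 2 bases, then TTTC on either strand. The 160 bases before the start sites of IFIT3 (chr10:89327837-89327996, plus strand) and EPSTI1 (chr13:42992242-42992401, minus strand), from RefSeq on GRCh38.p14, show it in capitals in 2 of the leading members.
IFIT3: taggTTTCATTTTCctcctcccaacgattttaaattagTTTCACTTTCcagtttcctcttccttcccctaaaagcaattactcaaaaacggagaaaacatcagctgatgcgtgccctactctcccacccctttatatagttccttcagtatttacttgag
EPSTI1: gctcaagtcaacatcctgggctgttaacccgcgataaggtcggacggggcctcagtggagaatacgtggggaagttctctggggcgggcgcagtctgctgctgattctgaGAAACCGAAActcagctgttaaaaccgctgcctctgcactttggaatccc
The matches began at -156 and -122 in IFIT3 and at -50 in EPSTI1. The element was held by 28 of 47 windows of the list (59.6%) and by 3.57% of all windows.

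The double-stranded RNA sensors and RNA interference genes had 3 lower and 1 higher of 16, against 7.8% and 6.95% of all genes. Their median was -0.12. Besides DICER1, the lower ones were MAVS, the adaptor of RIG-I-like receptors, at 10.37 and 10.19 against 10.75 and 10.84 with scrambled siRNA, and AGO1, an Argonaute protein (-0.42, SE 0.16, and -1.08 and -0.01 in its other probe sets). With an array left out, 1 to 3 members were lower and 0 to 2 higher. XPO5, which exports microRNA precursors from the nucleus, was higher, at 10.16 and 9.97 against 9.62 and 9.61 with scrambled siRNA. The log2 difference of DICER1 from the scrambled arrays was -1.98 in the VEGF-C arrays and -0.18 in the NRP-2 arrays.

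Genes of the integrated stress response, the programme of ATF4 that supplies amino acids, had a median of 0.34. Of 32 measured, 6 were higher and 0 lower at the unadjusted threshold, against 6.95% and 7.8% of all genes. In 26 the groups did not overlap in the higher direction, against 26.8% of all genes. CTH, which makes cysteine, had 9.73 and 10.13 with VEGF-C siRNA, against 9.03 and 8.14 with scrambled siRNA (1.34, SE 0.37). SESN2, a leucine-sensing inhibitor of mTORC1, had 8.13 and 8.23, against 7.44 and 6.57 with scrambled siRNA (1.18, SE 0.29). PPP1R15A, the phosphatase subunit GADD34, had 8.38 and 8.30, against 7.79 and 7.39 with scrambled siRNA (0.75, SE 0.18). CHAC1, which degrades glutathione, and SLC3A2, the heavy chain of amino acid exchangers, differed by 0.51 (SE 0.17) and 0.45 (SE 0.12). The count was 3 without either scrambled array and 4 without either VEGF-C array. Against the same scrambled arrays the list had a median of -0.34 with NRP-2 siRNA.

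The unfolded protein response and heat shock list had as many members above as below 0 (13 each). At the unadjusted threshold 3 of 26 were higher, against 6.95% of all genes. The higher ones belong to the endoplasmic reticulum branch: DNAJB9, a co-chaperone (0.66, SE 0.17), ERN1, the sensor IRE1 (0.60, SE 0.17, but 0.07 in its other probe set), and MANF, a secreted stress protein (0.50, SE 0.12). Levels of DNAJB9 were 12.45 and 12.68, against 11.99 and 11.82 with scrambled siRNA. None (0) was higher without scrambled array 2, and 1 to 3 were without another of the 4 arrays.

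NRF2 target and glutathione genes had 3 higher and 2 lower of 23, against 6.95% and 7.8% of all genes. Their median was 0.21. GCLC, which limits glutathione synthesis, had 12.32 and 11.97 with VEGF-C siRNA, against 11.55 and 11.61 with scrambled siRNA (0.56, SE 0.15). SRXN1, sulfiredoxin, differed by 0.55 (SE 0.16) and NFE2L2, which encodes NRF2, by 0.32 (SE 0.12), whereas the glutathione transferases GSTA4 (-0.52, SE 0.19) and MGST1 (-0.32, SE 0.12) were lower. The other probe set of GCLC differed by 0.25, and those of MGST1 by -0.06 and -0.06. With any of the 4 arrays left out, 1 to 2 members were higher and 0 to 1 lower. The antioxidant response element TGACNNNGC was held, on either strand, by 10 of 24 windows (41.7%), against 13.3% of all windows. Of 11 aldo-keto and aldehyde enzymes 2 were higher, and AKR1B10, a retinal reductase, was higher in both VEGF-C arrays (7.93 and 7.27, against 6.79 and 6.03) without passing the unadjusted threshold. The element was held by 3 of 12 windows of that list (25.0%).

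Iron handling genes had 2 lower and 1 higher of 16, against 7.8% and 6.95% of all genes. HEPH, hephaestin, the ferroxidase that works with ferroportin, had 3.41 and 3.37 with VEGF-C siRNA, against 4.63 and 4.90 with scrambled siRNA (-1.38, SE 0.28). Its levels are near the floor of the scale, where the size of log2 differences is uncertain. It passed the filter through the scrambled arrays, since its mean was 3.39 with VEGF-C and 3.99 with NRP-2 siRNA. SLC40A1 was the other lower member and LCN2 the higher one. With any of the 4 arrays left out, 2 to 3 were lower.

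Death receptor and BCL2 family genes had 4 higher and 0 lower of 23, against 6.95% and 7.8% of all genes. Their median was 0.24. FAS, a death receptor, had 8.14 and 8.44 with VEGF-C siRNA, against 7.23 and 7.10 with scrambled siRNA (1.13, SE 0.36). BIK had 9.80 and 9.87, against 8.95 and 8.95 with scrambled siRNA (0.89, SE 0.13). CFLAR, the inhibitor FLIP, and HRK, another BH3-only protein, differed by 0.55 (SE 0.15) and 0.40 (SE 0.12), with -0.30 to 0.70 in the other probe sets of CFLAR. The count was 2 without scrambled array 1 and 1 without scrambled array 2. PC3 cells are known to lack the protein p53. Its target genes had 4 lower and 1 higher (FAS) of 16, against 7.8% and 6.95% of all genes. The lower ones were ZMAT3, an RNA-binding protein, at 8.72 and 9.0 against 9.65 and 9.87 with scrambled siRNA, TP53I3 (-0.62, SE 0.19), SESN1 (-0.61, SE 0.23) and TP53INP1 (-0.59, SE 0.21), and the lower count was 2 without either scrambled array or VEGF-C array 2.

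Autophagy, the process in the title of the series, had 7 higher and 1 lower of 45 measured genes, against 6.95% and 7.8% of all genes, and a median of 0.01. EPG5, which tethers autophagosomes to late endosomes and lysosomes, had 9.71 and 9.55 with VEGF-C siRNA, against 8.56 and 8.39 with scrambled siRNA (1.16, SE 0.17), but its other probe set differed by 0.35. ATG12, the ubiquitin-like protein that is joined to ATG5, had 13.23 and 13.48, against 12.64 and 12.98 with scrambled siRNA (0.55, SE 0.17). The other probe sets of ATG12 differed by 0.25 and 0.40. CALCOCO2, the receptor NDP52, differed by 0.48 (SE 0.12; other probe set 0.17), ATG101, a subunit of the ULK1 complex, by 0.40 (SE 0.12), and TECPR1, a tether of autophagosomes, by -0.35 (SE 0.11). The higher count was 3 without scrambled array 1, 2 without scrambled array 2, 8 without VEGF-C array 1 and 2 without VEGF-C array 2, and the lower count was 4 without VEGF-C array 1 and 0 without another.

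Lysosomal and vacuolar ATPase genes had 2 higher and 4 lower of 41, near the 6.95% and 7.8% of all genes. Their median was -0.10. The lower count was 1 without scrambled array 1, scrambled array 2 or VEGF-C array 1, and 3 without VEGF-C array 2. LAMP2, a lysosomal membrane glycoprotein needed for autophagosome clearance, had 13.32 and 13.54 with VEGF-C siRNA, against 12.20 and 12.58 with scrambled siRNA (1.05, SE 0.18). That holds for a single probe set, since its other probe sets differed by 0.12, 0.04 and 0.02. LAMP3, a relative induced by interferon and stress, was higher by 0.62 (SE 0.20). Lower were ASAH1, acid ceramidase, at 13.25 and 13.20 against 13.77 and 13.83 with scrambled siRNA, CTSZ, cathepsin Z (-0.51, SE 0.14), and ATP6AP2, an accessory subunit of the proton pump (-0.41, SE 0.12).

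Phosphoinositide and endosome genes had 2 higher and 3 lower of 42, a share near that of all genes. The higher ones were WDFY1 and MTMR6, a myotubularin phosphatase of the lipid that WDFY1 binds, with 11.53 and 11.24 with VEGF-C siRNA and 10.54 and 10.51 with scrambled siRNA (0.86, SE 0.14) and 0.51 in its other probe set. FIG4, which removes a phosphate from phosphatidylinositol 3,5-bisphosphate (-0.43, SE 0.15), VPS16, a core subunit of the HOPS and CORVET tethers (-0.35, SE 0.12), and RAB5B, an early endosome GTPase (-0.34, SE 0.12), were lower. The higher count stayed at 2 with any of the 4 arrays left out, while the lower count was 0 without either scrambled array.

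Genes around mTOR and AKT had 3 higher and 4 lower of 26, against 6.95% and 7.8% of all genes. Their median was 0.01. SGK1, a kinase related to AKT, had 8.77 and 9.02 with VEGF-C siRNA, against 7.70 and 7.37 with scrambled siRNA (1.36, SE 0.44). EIF4EBP2, a repressor of cap-dependent translation, had 10.20 and 8.73, against 10.81 and 11.01 with scrambled siRNA, and most of its difference of -1.45 (SE 0.46) came from VEGF-C array 2. Its other probe sets differed by -0.70 and -1.71. The Rag GTPases that bring mTORC1 to the lysosome differed in direction, with RRAGC at 0.44 (SE 0.12) and RRAGB at -0.62 (SE 0.21). PIK3R3, a regulatory subunit of PI 3-kinase, was lower (-0.79, SE 0.23). With any of the 4 arrays left out, 1 member was higher and 0 to 3 were lower.

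**Figure D5:**
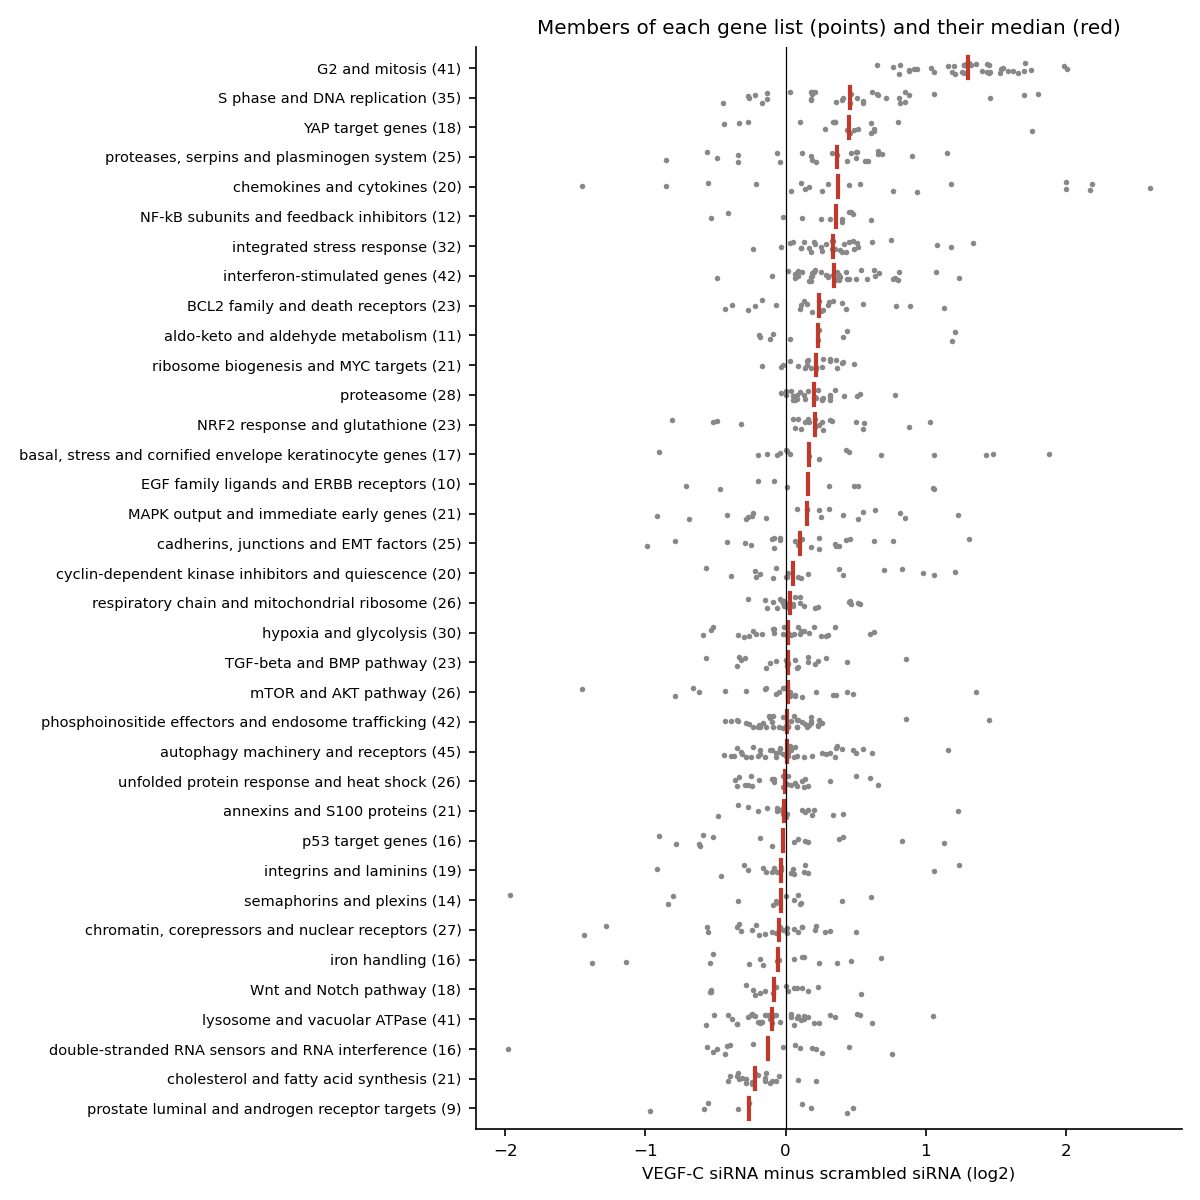
Log2 difference between VEGF-C and scrambled siRNA (horizontal axis) of every measured member (grey points) of the lists with at least 9 measured members, with the list median in red and the number of members in parentheses. G2 and mitosis has the highest median, 1.30, and cholesterol synthesis and luminal prostate genes have the lowest, -0.22 and -0.26.

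Lists of metabolism and housekeeping complexes had medians of small size. Of 21 genes of cholesterol and fatty acid synthesis 19 lay below 0, with a median of -0.22 and differences of -0.41 to 0.22, yet none (0 higher, 0 lower) passed the unadjusted threshold. Their mean levels were 9.45 and 9.58 with VEGF-C siRNA, against 9.61 and 9.82 with scrambled siRNA, and the median without scrambled array 2 was -0.08. Hypoxia and glycolysis genes had a median of 0.02 and 2 higher of 30, against 6.95% of all genes. ADM, the vasodilator adrenomedullin, was among them, at 10.60 and 10.35 against 9.78 and 9.97 with scrambled siRNA, as was HILPDA, a lipid droplet protein (0.63, SE 0.21). The list had 0 higher and 3 lower without scrambled array 1, and 3 higher and 0 lower without scrambled array 2.

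Proteasome genes had a median of 0.21 and 19 of 28 members without overlap in the higher direction, against 26.8% of all genes. At the unadjusted threshold 4 were higher, against 6.95% of all genes. They were the immunoproteasome subunits PSMB9, at 9.58 and 9.92 against 8.88 and 9.06 with scrambled siRNA, and PSMB10 (0.53, SE 0.19), the deubiquitinase PSMD14 (0.51, SE 0.18) and the ATPase PSMC3 (0.42, SE 0.16). The higher count was 1 without either scrambled array and 2 without either VEGF-C array. Ribosome biogenesis and MYC target genes had 5 higher of 21 and a median of 0.22, led by NOP2, a methyltransferase of ribosomal RNA, at 8.75 and 8.80 against 8.33 and 8.25 with scrambled siRNA, and between 0 and 1 passed with any of the 4 arrays left out. In the respiratory chain and mitochondrial ribosome list 3 of 26 were higher, MRPL12 (0.53, SE 0.13) and CYC1, cytochrome c1 (0.47, SE 0.13), among them, and the median was 0.03. With any of the 4 arrays left out 0 to 2 were higher.

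Chromatin factors, corepressors and nuclear receptors had 5 lower and 0 higher of 27, against 7.8% and 6.95% of all genes. Their median was -0.05. After LCOR and NAP1L2 came VDR, the vitamin D receptor, at 10.56 and 10.33 against 11.15 and 10.85 with scrambled siRNA, NCOA2, a steroid receptor coactivator (-0.55, SE 0.19), and HDAC1, a histone deacetylase (-0.32, SE 0.12). The lower count was 2 to 5 with any of the 4 arrays left out. Prostate luminal genes had 2 lower and 1 higher of 9, against 7.8% and 6.95% of all genes. SLC45A3, a prostate membrane transporter, had 7.87 and 7.86 with VEGF-C siRNA, against 8.49 and 9.19 with scrambled siRNA, and HOXB13, a homeobox factor of the prostate, differed by -0.58 (SE 0.22). KLK3, the gene of prostate-specific antigen, was higher, at 6.87 and 6.70 against 6.29 and 6.32 with scrambled siRNA. Scrambled array 2 was the high one for SLC45A3, and the list had 0 lower members and a median of -0.08 without it.

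Markers of other cell types were mostly under the filter on level, with 2 of 11 neuroendocrine, 5 of 13 fibroblast and smooth muscle, 1 of 10 endothelial and 1 of 10 leukocyte markers measured. NTS, neurotensin, a neuroendocrine peptide, had 3.69 and 3.80 with VEGF-C siRNA, against 4.46 and 5.72 with scrambled siRNA, and passed the filter through the scrambled arrays. COL1A1, the collagen I alpha 1 chain, had 9.97 and 10.13, against 10.73 and 10.77 with scrambled siRNA, while its other probe set differed by 0.38. TAGLN, an actin-binding protein of smooth muscle, had 6.32 and 6.67, against 5.24 and 5.54 with scrambled siRNA. PECAM1, the measured endothelial marker, had 9.17 and 9.35, against 9.39 and 10.83.

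Setting VEGF-C siRNA against NRP-2 siRNA, which does not use the scrambled arrays, also gave no called gene (0 of 11131, 0.0%), at a lowest limma adjusted p of 0.098. At an unadjusted p under 0.05, 964 genes were higher (8.66%) and 1062 lower (9.54%) with VEGF-C siRNA. VEGFC itself had 8.46 and 7.27, against 11.99 and 11.67 with NRP-2 siRNA, and NRP2 had 5.51 and 6.01, against 3.41 and 2.81 with NRP-2 siRNA. KRT16, AKR1C1, IFIT3 and DICER1 kept the VEGF-C arrays apart from both other groups. PPBP did so too, but it had passed the filter only through the VEGF-C arrays. KRT16 had 8.13 and 7.74 with VEGF-C siRNA, against 6.01 and 5.87 with NRP-2 siRNA, and AKR1C1 had 9.51 and 9.74, against 8.48 and 8.37. For ANXA1 the NRP-2 arrays, at 13.51 and 13.46, were closer to the VEGF-C arrays than to the scrambled ones. WDFY1, FBXL12, GEMIN5 (9.37 and 9.13), BIK (9.72 and 9.51) and CTNNB1 (13.28 and 13.04) were among the genes with the same order. Against scrambled siRNA, the interferon list had a median of 0.34 for VEGF-C siRNA and -0.22 for NRP-2 siRNA, and that of the cholesterol list -0.22 and 0.21. Those comparisons share the 2 scrambled arrays.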

How the data were processed

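Relative transcript levels were measured in 6 arrays, 2 per group, grouped and numbered by the sample titles. The deposited data are log2 values for each probe set. Per the submitters' processing notes, Partek and GCRMA were used, and their versions were not given in the sources used here. The GCRMA method models background from probe sequence, normalizes between arrays and summarises each probe set. The size of differences of dim genes near its floor is uncertain. The authors' log2 values spanned 0.82 to 16.32 and array medians 3.0 to 3.07, so no further normalization was applied. Of 54675 probe sets, 62 were controls, 41091 were annotated to 1 gene by GEO's platform annotation of 2016, 1801 to several and 11721 to none.

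Probe sets with 1 gene were kept where the mean of the 6 arrays reached log2 4 (19946), and each of 11131 genes was represented by the probe set with the highest mean. limma 3.58.1 in R 4.3.3 (lmFit, eBayes, two-sided) was fitted to all 6 arrays, with 3 residual degrees of freedom, and p-values were adjusted by Benjamini-Hochberg over 11131 genes. Differences are log2, VEGF-C minus scrambled siRNA, with the standard error (SE) of the fit. The procedure was tested on simulated data.

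The named genes are the VEGF family, the 15 smallest p in each direction, the 10 largest differences in each direction among genes without overlap and at an unadjusted p under 0.05, up to 5 members of each gene list by p, and listed relatives of the leading genes. Lists were written from general knowledge, and the members and lists were chosen with earlier results of these data known. Promoter windows, 250 bases before to 50 after a start site, come from RefSeq on GRCh38.p14 (35116 windows), matched by symbol. Alternatives covered the filter, the choice of probe set, normalization, the prior, the replicate block and each array left out.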

Additional observations from a re-analysis of the deposited data

How the results depend on the processing

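The absence of called genes at limma's adjusted p under 0.05 held in each alternative except without the filter on level, where 1 gene was called against scrambled siRNA and 1 against NRP-2 siRNA. That gene is NWD2 in both, named after its values were seen, with 4.75 and 4.87 with VEGF-C siRNA, against 2.70 and 2.63 with scrambled siRNA and 2.58 and 2.58 with NRP-2 siRNA. With an array left out, the unadjusted counts against scrambled siRNA ranged from 309 to 979 in the higher direction and from 357 to 1010 in the lower, with 498 lower genes without scrambled array 1 and 357 without scrambled array 2. The VEGFC difference from scrambled siRNA ranged from -4.54 to -3.35. Against NRP-2 siRNA the counts ranged from 674 to 1178 and from 788 to 1218. Leaving out an array also takes away a residual degree of freedom. Differences that turned sign were those of FLT4 (-0.07 to 0.10 with an array left out, negative without VEGF-C array 2 and, at -0.01, without scrambled array 1), KDR (-0.09 to 0.01, and 0.01 with quantile normalization) and PGF (-0.15 to 0.04, and 0.03 without VEGF-C array 1), and the cause was not tested. No label says what the replicate numbers share, and 2 arrays a group are too few to show a pairing. The array 2 minus array 1 differences correlated over genes at 0.11 between VEGF-C and scrambled siRNA, 0.12 between VEGF-C and NRP-2 siRNA and 0.58 between NRP-2 and scrambled siRNA. The replicate block gave 0 called genes, 989 higher and 1008 lower, and 41 higher members of G2 and mitosis, against 3 without it. Of 178 named differences, 83 lost the unadjusted threshold without scrambled array 2, 58 without scrambled array 1 and 62 without each VEGF-C array. Differences of genes near the floor, such as HEPH and NTS, are uncertain in size. Both genes passed the filter through the scrambled arrays, where they are high.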
